A study of Mus musculus with 4 samples.

Results

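The cells described here were luminal cells of the castrated anterior prostate (AP), split by their RFP reporter signal into RFP+ and RFP- cells. They came from adult mice carrying P2-Runx1:RFP on an ICR (CD-1) background, in which the proximal P2 promoter of Runx1 drives the reporter. The animals were over 8 weeks old and had been castrated for more than 4 weeks. In the second of 3 adult runs, the AP, dorsolateral (DLP) and ventral (VP) lobes of 5 castrated mice were pooled, and those of 3 intact mice were pooled beside them. EPCAM+ cells of each lobe were sorted by RFP, tagged with a lipid-anchored oligonucleotide barcode (MULTI-seq) and loaded together on 1 lane of droplet single-cell RNA-seq. RFP+ corresponds to the sort labelled RFP High, and RFP- to the other sort of the same lobe. Both groups carry the same reporter allele and the same castration.

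Of 4398 cells of this run with 750 to 7500 detected genes and under 10% mitochondrial UMIs, 480 carried the barcode of castrated AP RFP+ cells and 95 that of castrated AP RFP- cells. A cell was assigned where its strongest barcode was at least 3 times that barcode's library median and at least 2 times the next barcode. The luminal cells were chosen by their measured expression. They had a UMI of Epcam, none of the leukocyte gene Ptprc, at least 5 UMIs of Krt8 and Krt18 per 10000, and under 3 of the basal keratins Krt5 and Krt14. This left 324 cells, of which 253 were RFP+ and 71 were RFP-. The luminal share was 52.7% of the RFP+ cells (95% exact binomial interval 48.1 to 57.3) and 74.7% of the RFP- cells (64.8 to 83.1). Of the assigned cells, 158 RFP+ and 11 RFP- cells exceeded the basal keratin limit, and 2 and 1 fell short of the luminal keratin limit. The luminal cells nearest that limit held 6.28 (RFP+) and 5.66 (RFP-) UMIs of Krt8 and Krt18 per 10000, and the nearest cells outside it held 4.44 and 0. At the basal limit the nearest cells inside held 2.76 and 2.93, and those outside 3.11 and 6.84.

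The prostatic epithelium is built of secretory luminal cells over a basal layer, and its lobes make different secretory proteins. Most luminal cells need androgen, regress after castration and regrow when androgen returns, while cells near the urethra, called proximal, carry Krt4, Psca and Ly6a and persist with little androgen. Runx1 is a DNA-binding transcription factor that acts with its partner Cbfb. It is transcribed from the distal promoter P1 or the proximal promoter P2, and the RFP reporter follows P2. The comparison asks how luminal cells sorted as RFP+ differ from those of the RFP- sort once androgen has been withdrawn.

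The populations were told apart by the following oligonucleotides, shown because each assignment rests on them. Capitals mark the 8-base barcode.
Castrated AP RFP+ oligonucleotide: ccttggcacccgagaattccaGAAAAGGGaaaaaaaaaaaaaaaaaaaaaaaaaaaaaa
Castrated AP RFP- oligonucleotide: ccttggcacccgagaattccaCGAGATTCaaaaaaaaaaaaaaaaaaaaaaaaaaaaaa
Over the cells of the library the median count was 14 for the first barcode and 8.00 for the second.

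The promoter the reporter follows lies within the Runx1 gene (chr16:92601466-92826149, minus strand). RefSeq sequence of GRCm38.p6 from 250 bases before to 50 bases after the downstream start, chr16:92697280-92697579 on the minus strand, is shown first, and the same window at the upstream start, chr16:92826025-92826324, second. Capitals mark ACCACA, the reverse complement of the RUNX motif TGTGGT.
Runx1 downstream start: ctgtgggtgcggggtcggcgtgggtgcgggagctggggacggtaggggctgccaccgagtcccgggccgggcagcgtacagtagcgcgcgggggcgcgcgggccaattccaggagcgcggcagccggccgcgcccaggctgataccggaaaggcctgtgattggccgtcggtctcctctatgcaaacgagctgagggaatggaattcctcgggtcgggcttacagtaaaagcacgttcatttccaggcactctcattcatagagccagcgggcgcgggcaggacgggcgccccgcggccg
Runx1 upstream start: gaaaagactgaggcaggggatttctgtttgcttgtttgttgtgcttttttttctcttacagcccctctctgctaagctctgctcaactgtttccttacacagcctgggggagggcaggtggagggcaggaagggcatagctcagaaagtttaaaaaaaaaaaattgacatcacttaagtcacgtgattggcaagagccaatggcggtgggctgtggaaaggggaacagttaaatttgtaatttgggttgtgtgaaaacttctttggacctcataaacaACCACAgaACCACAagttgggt
The upstream window held the motif 2 times and the downstream window 0 times on either strand, for TGTGGT and for its variant TGCGGT. Of 32851 such windows over all genes, 16.8% held TGTGGT and 6.45% held TGCGGT. UMIs are counted at the 3' end of transcripts, so transcripts from P1 and P2 were not told apart.

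Both groups held cells that stood apart from the rest. Sbp (spermine binding protein), Spink1 (a secreted protease inhibitor) and Sbpl are secretory genes, and a separate set of cells gave at least 10% of all their UMIs to these 3 genes. These are called Sbp-high cells below. There were 19 among the 253 RFP+ cells (7.51%, 4.58 to 11.5) and 17 among the 71 RFP- cells (23.9%, 14.6 to 35.5). In these cells the 3 genes made up a median of 52.3% (RFP+) and 42.6% (RFP-) of UMIs, against 0.252% and 0.263% in the other cells. No cell lay between 2.55% and 15.6% among RFP+ cells or between 3.1% and 10.4% among RFP- cells. Sbp-high cells were deeper, with a median of 48282 and 47194 UMIs against 12174 and 11680.5 in the other cells.

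The same profile was common in another lobe of the same lane. It was found in 134 of 150 RFP+ luminal cells of the intact VP (89.3%) and in 49 of 63 RFP- cells there (77.8%). In the Sbp-high cells of the castrated AP the strongest barcode was a median of 13.8 (RFP+) and 10.0 (RFP-) times its library median, against 23.3 and 22.2 in the other cells. The second barcode was one of intact VP in 8 of 19 Sbp-high RFP+ cells (42.1%) and 11 of 17 Sbp-high RFP- cells (64.7%). In the other cells it was so in 33 of 234 (14.1%) and 6 of 54 (11.1%). The doublet caller Scrublet, run on the whole library, placed 5 and 3 of the Sbp-high cells among its top 6%, and 4 and 1 of the others. The origin of the Sbp-high cells was not tested. The main comparisons are therefore given for all cells and without them. Some single genes and marker sums are given in 1 setting only.

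**Figure D1:**
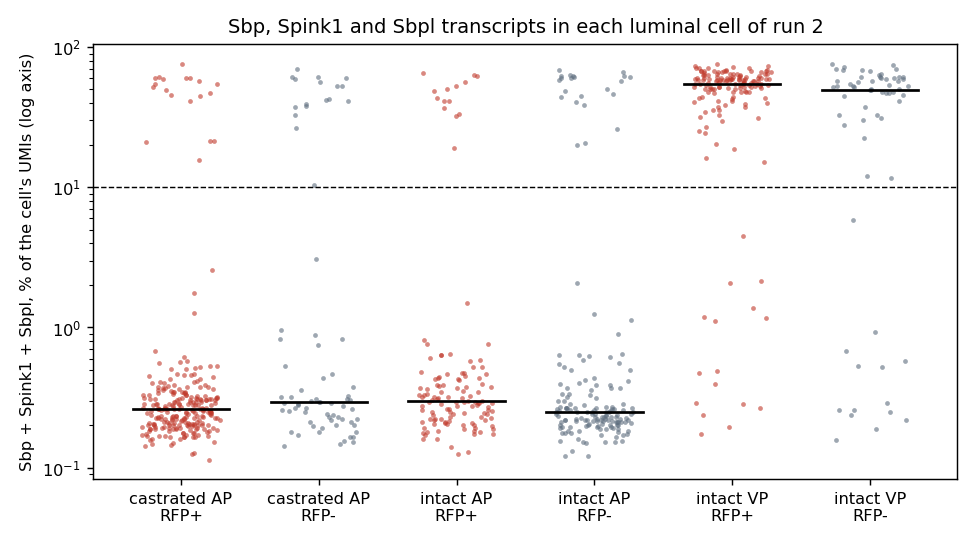
Share of each luminal cell's UMIs from Sbp, Spink1 and Sbpl (percent, log axis) in castrated AP, intact AP and intact VP populations of run 2, 1 point per cell, with the median of each population as a bar and a dashed line at 10%. The castrated AP cells fall into a low cloud and a high cloud of 19 RFP+ and 17 RFP- cells, which lies where most intact VP cells lie.

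The RFP+ cells held 4996754 UMIs in all and the RFP- cells 1648535. The median cell had 12784 and 14095 UMIs, 3338 and 3246 genes, and 3.87% and 3.19% mitochondrial UMIs. Since each group is 1 sum of cells from 1 mouse pool and 1 library, no test of the difference was possible. Values are UMIs of a gene per 1000000 UMIs of the summed cells (CPM), and intervals are 95% exact intervals that cover counting error only. RFP status also cannot be told apart from any other difference between the 2 sorted fractions. Free RNA was present, since 99.7% of 279 leukocytes of the run were expected to hold a UMI of Sbp when cells were brought to 3000 UMIs each. The same was expected of 98.6% and 98.8% of RFP+ and RFP- cells that were not Sbp-high.

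More genes were higher than lower in RFP+ cells. Of 5729 genes with a UMI in at least 25% of the cells of either group, 377 (6.58%) were at least 2-fold higher in RFP+ cells and 22 (0.384%) at least 2-fold lower. Without the Sbp-high cells, which left 234 RFP+ and 54 RFP- cells, 147 of 5444 genes (2.70%) were higher and 21 (0.386%) lower. Of these, 113 and 2 were also among the genes called in all cells. The 3 secretory genes alone made up 10.4% of RFP+ and 25% of RFP- UMIs, and the median log2 ratio of all measured genes was 0.31. Without the Sbp-high cells the median was 0.11, with the 3 genes at 0.268% and 0.391% of UMIs. With totals that leave out the 50 most abundant genes, every log2 ratio shifted by -0.27, and the split was 169 higher and 82 lower. Centred on the median gene it was 141 higher and 91 lower, and 96 and 43 without the Sbp-high cells.

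**Figure D2:**
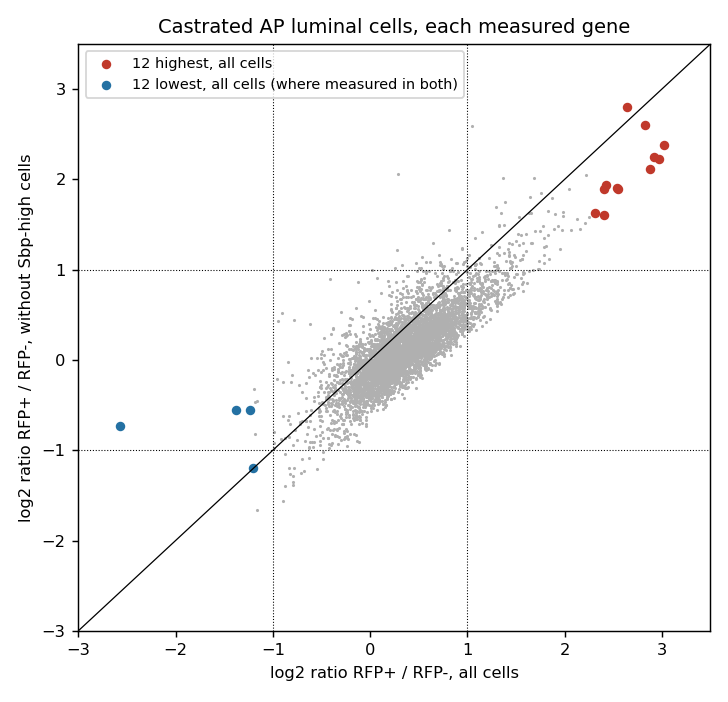
Log2 ratio of RFP+ over RFP- CPM in all castrated AP cells (x axis) and without the Sbp-high cells (y axis), 1 point per gene measured in both settings, with the 12 highest and, where measured in both, the lowest genes of all cells in colour. The highest genes lie above 1 on both axes. Of the lowest secretory genes, Scgb2b27 moves toward 0 on the y axis, at -0.73. Sbp and Spink1 lie at -0.55 there, but they help to define the cells left out, so their shift follows in part from that choice.

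Runx1 itself was measured at 97.9 CPM in RFP+ cells (489 UMIs) and at 41.2 CPM in RFP- cells (68 UMIs), a ratio of 2.37 (1.84 to 3.1). Without the Sbp-high cells it was 114 and 69.2 CPM, a ratio of 1.65 (1.25 to 2.22). Both intervals lie above 1, in the direction of the sort labels, and RFP- cells were not devoid of the transcript. A Runx1 UMI was found in 62.1% of RFP+ and 39.4% of RFP- cells. At an equal depth of 3000 UMIs and without Sbp-high cells, the expected shares were 26.2% and 15.6%, against 31.8% in leukocytes, which express Runx1 themselves. Cbfb, the DNA-binding partner, had 19.4 and 12.7 CPM, with a ratio of 1.52 and an interval that holds 1 (0.943 to 2.57). Without Sbp-high cells its ratio was 1.08. Runx2 had 17 UMIs in RFP+ cells and 2 in RFP- cells, and Runx3 had 4 and 0.

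The 12 genes with the highest ratios encode surface proteins, transporters, signalling regulators and secreted proteins. They include Btc, Slc16a11, Plaur, Scara3, Ly6a, Ppp1r1b, Camk2n1, Slc40a1, Net1, Arl4c and Clu, with ratios from 8.10 down to 4.95. Without the Sbp-high cells their ratios ran from 6.99 down to 3.05, and each kept an interval above 1.

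Ly6a, better known as Sca-1, is a surface protein used to sort prostate progenitor cells (chr15:74994877-74998031, minus strand). It was at 294 CPM in RFP+ cells and 41.2 CPM in RFP- cells, a ratio of 7.12 (5.58 to 9.22). Without Sbp-high cells the levels were 359 and 59.4 CPM, a ratio of 6.05 (4.54 to 8.24). A Ly6a UMI was seen in 141 of 234 such RFP+ cells (60.3%) and in 11 of 54 RFP- cells (20.4%). The median RFP+ cell held 1.06 Ly6a UMIs per 10000 and the median RFP- cell 0. At 3000 UMIs per cell the expected shares were 39.0% and 8.12%, and 12.1% in leukocytes, of which lymphocytes express Ly6a themselves.

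Clu encodes clusterin, a secreted chaperone long known to accumulate in the regressing prostate (chr14:65968483-65981547, plus strand). It had 3339 CPM in RFP+ cells and 674 CPM in RFP- cells, a ratio of 4.95 (4.66 to 5.27). Without the Sbp-high cells the levels were 4050.4 and 1308 CPM, a ratio of 3.1 (2.91 to 3.30). The median cell gave 22 Clu UMIs per 10000 among RFP+ and 1.52 among RFP- cells. The groups overlapped, since cells without a Clu UMI occurred in both and the highest cell of each held 314 and 89.2 per 10000. In RFP- cells 2 cells held 69.2% of all Clu UMIs, and 68.8% of those of Ly6a also lay in 2 cells. At equal depth the expected share of cells with a Clu UMI was 81.7% in RFP+ and 41.5% in RFP- cells, against 5.66% in leukocytes. Scara3, a scavenger receptor gene next to Clu on the same chromosome (chr14:65919394-65953935, minus strand), had 26.8 and 3.64 CPM, a ratio of 7.37. Without Sbp-high cells its ratio was 4.31 (1.92 to 12).

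Plaur is the receptor of the urokinase plasminogen activator. It was at 133 CPM in RFP+ and 17.6 CPM in RFP- cells, a ratio of 7.55 (5.21 to 11.4), and at 159 and 33.4 CPM without Sbp-high cells, a ratio of 4.77 (3.25 to 7.30). Its expected share of cells at equal depth was 27.4% and 7.69%, and it was 18.2% in leukocytes, which use this receptor too. Btc, which encodes betacellulin, a ligand of the EGF receptor, had the highest ratio. It was at 44.2 and 5.46 CPM, a ratio of 8.10 (4.19 to 18), which was 5.19 (2.58 to 12.2) without Sbp-high cells. The RFP- level of Btc rested on 9 UMIs, and those of Slc16a11, Scara3 and Ppp1r1b on 5, 6 and 6.

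Slc16a11, of the monocarboxylate transporter family, had 23.8 and 3.03 CPM. Slc40a1, the iron exporter ferroportin, had a ratio of 5.82 (3.58 to 10.1), and 74.2 and 19.8 CPM without Sbp-high cells. Net1, an exchange factor for RhoA, and Arl4c, a small GTPase of the ARF family, had ratios of 5.39 and 5.31. Camk2n1, an inhibitor of calcium/calmodulin-dependent kinase II, had 46.0 and 7.89 CPM. Ppp1r1b, an inhibitor of protein phosphatase 1 also known as DARPP-32, had 22.6 and 3.64 CPM, and its ratio was 6.21 in all cells and 6.99 without Sbp-high cells. Of the 5 among the 12 genes with a promoter window in the RefSeq table used, 0 held either RUNX motif. Of the 9 among the 12 lowest genes with a window, 1 held TGTGGT and 2 held TGCGGT. The shares were 18.9% and 7.34% of all genes and 13.3% and 11.7% of the measured genes.

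A further gene appeared among the highest only when the Sbp-high cells were left out. Nupr1, a stress-induced nuclear regulator, had 870.4 and 710.3 CPM in all cells, a ratio of 1.23. Without Sbp-high cells it had 707 and 169 CPM, a ratio of 4.17 (3.51 to 4.99). At equal depth the expected share of cells with Nupr1 was then 51.2% in RFP+ and 18.7% in RFP- cells, against 6.69% in leukocytes. The Sbp-high RFP+ cells themselves held a median of 10.5 Nupr1 UMIs per 10000, against 2.18 in the other RFP+ cells. Sept9, Lgals3bp, Cnn2, Ppl and Plce1 were likewise among the 12 highest only in that setting, with ratios from 8.04 to 4.02. The list of this setting was drawn after the Sbp-high cells had been seen.

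**Figure D3:**
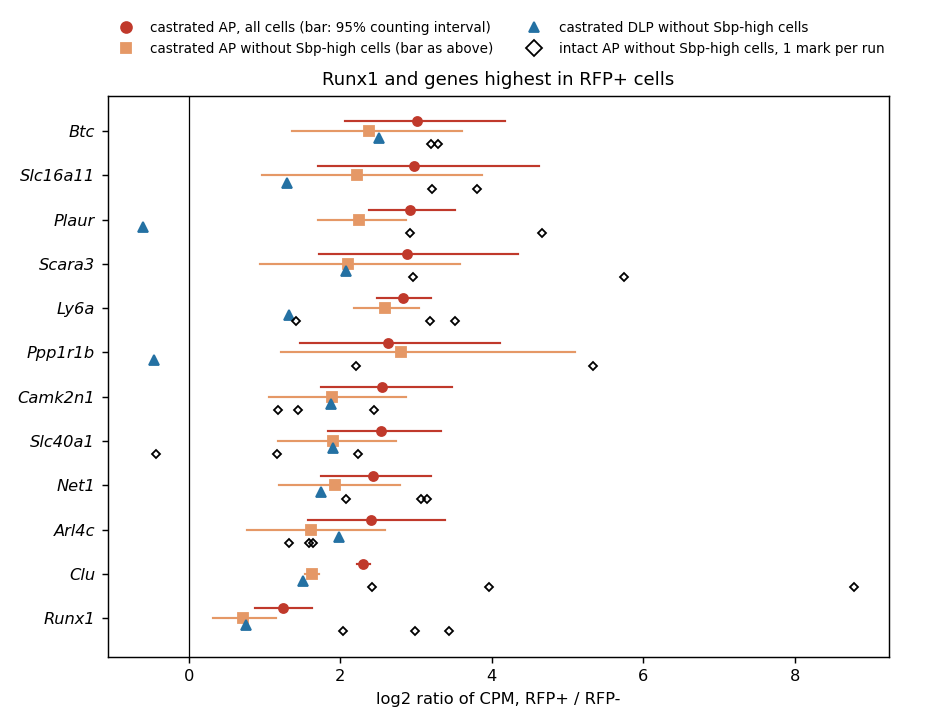
Log2 ratio of RFP+ over RFP- CPM for Runx1 and 11 of the 12 highest genes in all castrated AP cells and without the Sbp-high cells, with 95% counting intervals as bars, beside castrated DLP (triangles) and the 3 intact AP runs (open diamonds, where both groups held UMIs) without Sbp-high cells. The castrated AP values stay above 0 in both settings, and those of Clu, Ly6a and Runx1 are above 0 in DLP and in each intact run.

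Within the RFP+ cells that were not Sbp-high, the genes did not mark all cells alike. At 3000 UMIs per cell, 95.5% of cells holding a Ly6a UMI were expected to hold Clu, against 72.8% of those without Ly6a. For Plaur the shares were 38.0% and 20.7%, for Anxa3 66.1% and 38.2%, and for Runx1 36.9% and 19.3%. The distal secretory genes went the other way, with Pbsn at 26.9% in cells with Ly6a and 51.0% in those without, and Defb1 at 32.2% and 50.5%. Pbsn was expected in 34.5% of RFP+ cells with a Clu UMI and in 73.2% of those without. RFP- cells showed the same order for Clu and Pbsn, with 60.9% and 86.6%. The other pairs given above also kept their order there, except Plaur, at 6.94% in RFP- cells with Ly6a and 7.76% in those without. Only 8.12% of 52 RFP- cells were expected to hold Ly6a, so these shares rest on few cells. These cells come from 1 library and are not replicates, so the shares are a description.

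**Figure D4:**
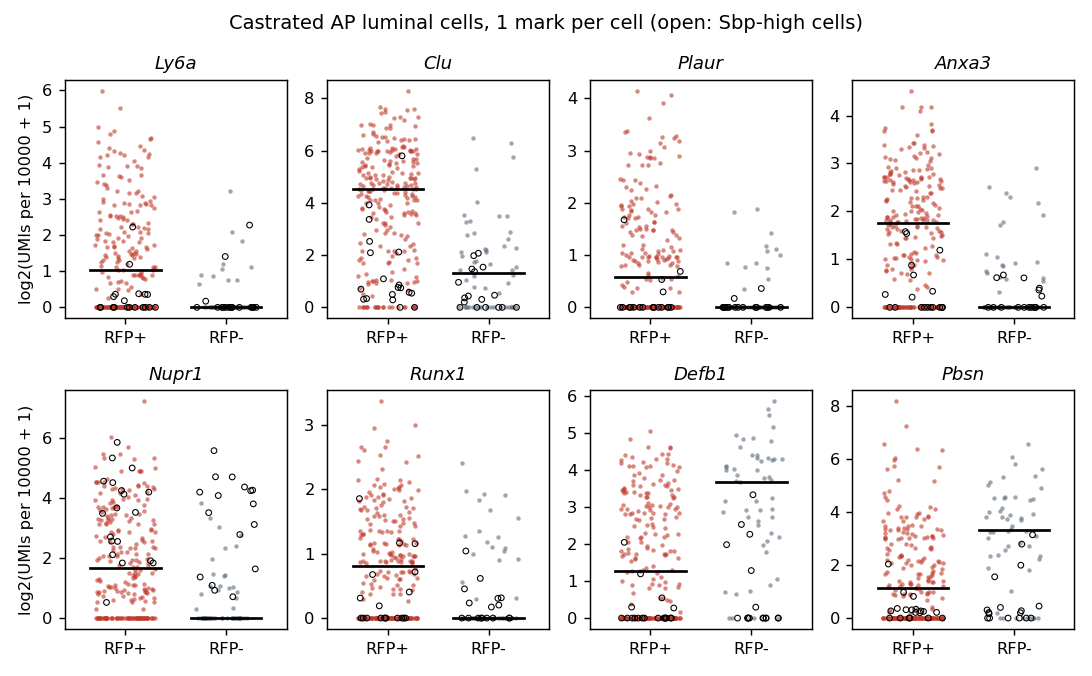
Log2 of UMIs per 10000 plus 1 in single castrated AP luminal cells, for RFP+ (234) and RFP- (54) cells as points with the median as a bar, and for Sbp-high cells as open circles that do not enter the median. Median levels before the log are 22 and 1.52 UMIs per 10000 for Clu, 1.41 and 11.8 for Defb1 and 1.2 and 9.12 for Pbsn, with wide overlap between the groups.

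On the lower side, the result depended on the Sbp-high cells. The 12 lowest genes of all cells were Scgb2b27, Timp4, Gipc2, Filip1l, Spdef, Spink1, Abo, Rnf186, Nme6, Sbp, Selenom and Mme, from 5.94-fold down to 2.30-fold lower in RFP+ cells. Scgb2b27, a secretoglobin, was at 645 and 3830.1 CPM in all cells, and at 23.1 and 38.3 CPM without Sbp-high cells, a ratio of 0.604. Sbp was at 72677 and 171916 CPM in all cells and at 1710.1 and 2510.2 CPM without them. Spink1 was at 23850.5 and 62167 CPM, and at 782 and 1143 CPM without them. Sbp and Spink1 help to define the Sbp-high cells, so their change between these settings follows in part from that choice. Gipc2, Filip1l and Abo, the last a glycosyltransferase, had ratios of 1.07, 1.22 and 1.22 without Sbp-high cells, with intervals that hold 1. Those of Timp4, Rnf186 and Selenom also held 1, at 0.746, 0.966 and 0.901.

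Of the 12, Spdef, Nme6 and Mme still had ratios under 0.5 in that setting, although Spdef and Nme6 were then below the 25% limit. Spdef, an ETS transcription factor of secretory epithelia, had 7.04 and 16.1 CPM, a ratio of 0.438 (0.220 to 0.922). Nme6, of the nucleoside diphosphate kinase family, had 7.55 and 23.5 CPM, a ratio of 0.321 (0.175 to 0.604). Mme encodes the membrane endopeptidase neprilysin, and had 32.2 and 74.2 CPM, a ratio of 0.434 (0.317 to 0.600). It was found in 36 of the 234 RFP+ and 14 of the 54 RFP- cells.

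Without the Sbp-high cells the lower genes included secretory products of luminal cells and glutathione transferases. Defb1, a beta-defensin, was at 488 and 1159.9 CPM, a ratio of 0.421 (0.389 to 0.455), and the median cell held 1.41 Defb1 UMIs per 10000 in RFP+ and 11.8 in RFP- cells. At equal depth 43.4% of RFP+ and 79.4% of RFP- cells were expected to hold it, against 2.08% of leukocytes. Pbsn, the androgen-driven secretory protein probasin, was at 864 and 1645 CPM, a ratio of 0.525 (0.493 to 0.560). Its median was 1.2 and 9.12 UMIs per 10000, and the expected shares were 41.6% and 75.9%, against 13.4% in leukocytes. Gstm1 and Gsta4, glutathione transferases, had ratios of 0.393 (0.336 to 0.462) and 0.426 (0.354 to 0.515). Pnliprp2, a lipase-related protein, had 52.6 and 155 CPM.

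Tgm4, the prostate transglutaminase that helps to form the copulatory plug, rested on few cells. It was at 955 and 2206 CPM without Sbp-high cells, a ratio of 0.433 (0.409 to 0.458), but 2 cells held 77.0% of the RFP- UMIs and 2 cells held 32.3% of the RFP+ UMIs. Without those 2 cells in each group it was at 661 and 565 CPM, the opposite order. The 2 cells are a larger part of the 54 RFP- cells than of the 234 RFP+ cells, so this order does not decide the direction. A Tgm4 UMI was found in 27.8% of these RFP+ cells and 44.4% of these RFP- cells. The median of either group was 0. With the 14 RFP+ and 7 RFP- cells of at least 10 Tgm4 UMIs per 10000 also left out, its log2 ratio was -2.64 and that of Pbsn -1.79, while that of Mme was -0.44. The cells left out were chosen by Tgm4 itself, so its ratio there is not independent of that choice. This further setting called 200 genes higher and 35 lower among 5335, and 88 higher genes and 1 lower gene were called in all 3 settings.

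The marker lists gave the following order. Among lists with at least 3 measured members, proximal luminal markers had the largest median, 1.90 on the log2 scale. This median rests on the 6 of 19 members that were measured, of which 5 were at least 2-fold higher. It leaves out Krt4, Psca, Ly6d, Wfdc2 and Krt7, which too few cells held, so it does not describe the whole list. Counts of list members below stand against 6.58% of all genes higher and 0.384% lower in all cells, and 2.70% and 0.386% without Sbp-high cells. Without Sbp-high cells the median was 1.29 and 3 were higher. Relative to the median gene the list medians were 1.59 and 1.18.

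Other markers of proximal cells were found in few cells. Psca, Ly6d, Wfdc2, Krt7 and Krt4 were below the 25% limit and are not counted above. Without Sbp-high cells Psca had 184 CPM in RFP+ and 278 CPM in RFP- cells, but it was seen in 5 of the RFP- cells and 2 of these held 98.7% of its UMIs. Ly6d was also seen in 5 RFP- cells, Wfdc2 in 4 and Krt4 in 6, with 95.2%, 98.1% and 68.6% of the UMIs in 2 cells. Krt7 was seen in 2 RFP- cells. Most RFP+ cells lacked these markers too, with Psca in 32 and Krt4 in 36 of 234 cells.

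Of 15 interferon-stimulated genes 8 were measured, 4 were at least 2-fold higher and 0 lower (6.58% and 0.384% of all genes), with a median log2 ratio of 1.09, which was 0.86 with 3 higher without Sbp-high cells. The antiviral genes Isg15 and Ifitm3 had ratios of 2.52 and 2.42, and the regulator Irf7 a ratio of 2.93. Without Sbp-high cells Irf7 had 132 and 50.7 CPM, a ratio of 2.60 (1.89 to 3.66), and Isg15 a ratio of 2.78 (1.78 to 4.56). All 13 measured genes of MHC class I presentation had ratios above 1 in both settings, with medians of 0.60 and 0.53, of which 1 and 0 passed 2-fold. Relative to the median gene, 12 of the 13 were higher in all cells and 13 without Sbp-high cells. Cd74, the invariant chain of MHC class II, had 127 and 32.1 CPM, a ratio of 3.94 (2.97 to 5.32), and 3.02 without Sbp-high cells. Summed leukocyte markers were at 30.6 CPM in RFP+ and 15.2 CPM in RFP- cells over 10 genes, with 5 of them at 0 in RFP- cells, and at 36.7 and 28.4 CPM without Sbp-high cells. Their part in these values was not tested.

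S100 proteins and annexins, which bind calcium, had 13 measured members, all with ratios above 1 (12 of them relative to the median gene), 5 of them past 2-fold. Their median of 0.68 was 0.41 without Sbp-high cells, with 3 of 12 past 2-fold. Anxa3 had 262 and 60.1 CPM, a ratio of 4.37 (3.56 to 5.41), and 2.95 (2.37 to 3.71) without Sbp-high cells. At equal depth it was expected in 49.1% of RFP+ and 16.1% of RFP- cells, against 8.91% of leukocytes. S100a11 had a ratio of 2.83, and of 2.06 (1.84 to 2.32) without Sbp-high cells.

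Genes of WNT, Notch, BMP and growth factor signalling were measured for 14 of 38 members, of which 4 were higher in all cells and 1 without Sbp-high cells, with medians of 0.81 and 0.37. Wnt4, a secreted ligand, had 63.6 and 18.2 CPM, a ratio of 3.5 (2.40 to 5.27), and 2.39 (1.6 to 3.71) without Sbp-high cells. Among luminal keratins and identity genes, 3 of 14 were higher in all cells and 1 without Sbp-high cells. Sox9, a transcription factor of epithelial progenitors, had 311 and 113 CPM, a ratio of 2.75, and 2.11 (1.78 to 2.53) without Sbp-high cells. Krt19 had a ratio of 2.21 and of 1.53. The gate genes Krt8 and Krt18 are given as a description of the choice, with 3025 and 1622 CPM for Krt8 and 4485 and 2963 CPM for Krt18. Foxa1, a luminal transcription factor not used by the gate, had 67.8 and 58.2 CPM, and Hoxb13 had 228 and 362 CPM.

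Castrated luminal markers had 4 of 7 members higher in all cells and 1 of 5 without Sbp-high cells, and Basp1 and Lpl (lipoprotein lipase) had ratios of 1.33 and 1.38 in the latter setting. Basal markers outside the gate had 2 of 5 higher, and 0 of 5 without Sbp-high cells. Of 11 measured genes of the integrated stress response, 2 were higher (6.58% of all genes), and 2 of 10 without Sbp-high cells (2.70%). Among them, Chac1, an enzyme that degrades glutathione, had ratios of 4.14 and 3.70. Tight junction genes had medians of 0.69 and 0.43, with 1 of 14 and 0 of 12 past 2-fold. Ccnd1, cyclin D1, had a ratio of 2.93, and of 1.87 without Sbp-high cells, and the immediate early gene Ier3 had 2.44 and 1.82.

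Secretory lists went the other way. Of 11 measured lobe secretory products, 1 was higher and 2 were lower in all cells (6.58% and 0.384% of all genes), with a median of -0.64, and without Sbp-high cells 1 of 14 was higher and 5 were lower (2.70% and 0.386%), with a median of -0.73. Relative to the median gene, 5 of 11 and 7 of 14 were lower. Androgen-responsive genes had 0 higher and 1 lower of 12, with a median of -0.44, and 0 and 2 of 11 with a median of -0.50 without Sbp-high cells. Of 16 measured glutathione transferase and redox genes, 0 passed 2-fold in all cells, and without Sbp-high cells 2 were lower, Gstm1 and Gsta4.

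Lists of basic cell functions carried few calls, and several changed sign with the setting. The 84 measured cytosolic ribosomal protein genes had a median of 0.21 in all cells and -0.19 without Sbp-high cells. Oxidative phosphorylation genes had 0.06 and -0.10 over 80 members, and glycolysis genes -0.11 and 0.03. Relative to the median gene, the ribosomal median was -0.11 in all cells and -0.30 without Sbp-high cells, and that of oxidative phosphorylation -0.25 and -0.20. The 25 genes of ER folding and secretion had -0.05 and -0.06, with 0 past 2-fold. Heat shock genes had medians of 0.40 and 0.05, immediate early genes 0.30 and 0.18, and mitochondrially encoded genes 0.39 and 0.19, and the heat shock median was -0.06 relative to the median gene without Sbp-high cells. Steroid receptor and enzyme genes had 0.13 and -0.09, glutathione and redox genes the same medians of 0.13 and -0.09, and metallothionein and zinc genes -0.14 and -0.28. Lipid and cholesterol genes had 1 of 15 past 2-fold in all cells. Antimicrobial and complement genes, which are not basic functions, had all 3 measured members past 2-fold in all cells, 2 higher and 1 lower. Without Sbp-high cells 1 of 3 was higher and 0 were lower. The cell cycle list had 2 measured members of 18 and 0 past 2-fold. Among markers of other cells, neuroendocrine genes were at 0 in both groups for 5 of 5 members. Endothelial markers summed to 13.4 and 23.1 CPM, fibroblast markers to 30.2 and 29.1, and smooth muscle markers to 2.20 and 10.3. Mesonephric markers (seminal vesicle and ductal genes) summed to 13.4 and 10.3 CPM, with 6 of 9 at 0 in either group, and of 2 measured urothelial markers 1, Upk1b, was past 2-fold in all cells.

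**Figure D5:**
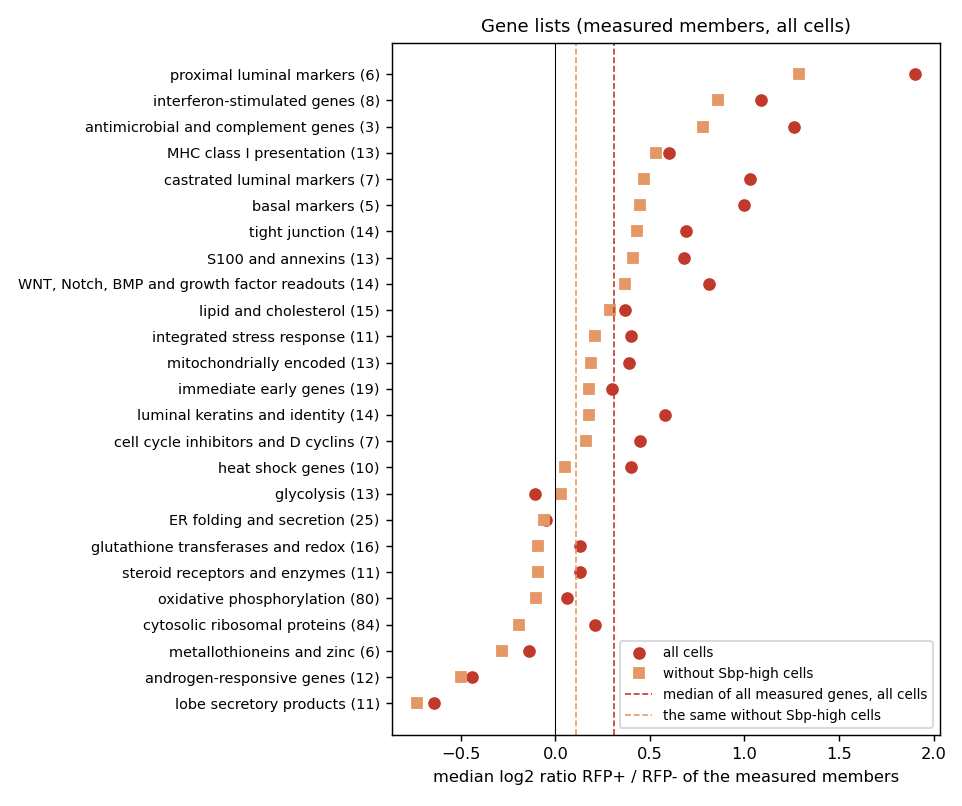
Median log2 ratio of RFP+ over RFP- CPM of the measured members of each gene list with at least 3 of them, in all castrated AP cells and without the Sbp-high cells, with the median of all measured genes (0.31 and 0.11) as lines. The measured proximal luminal markers, which leave out Krt4 and Psca, lie highest at 1.90 and 1.29. Lobe secretory products lie lowest at -0.64 and -0.73, and ribosomal protein genes cross 0.

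The other castrated lobes of the same mouse pool were set beside the AP. In castrated DLP, with 187 RFP+ and 39 RFP- luminal cells, all 12 of the highest AP genes and 10 of the 12 lowest had the same direction. Without Sbp-high cells, 173 and 33 cells remained and 10 and 7 of the genes kept it, with Plaur at a ratio of 0.658 (0.469 to 0.943) and Ppp1r1b at 0.728 (0.439 to 1.28) as exceptions among the highest. Leaving the Sbp-high cells out took the DLP RFP+ UMIs from 3702150 to 3004773 and the RFP- UMIs from 768976 to 382422. No share of all genes with the AP direction stands beside the DLP counts or the VP counts below. Agreement between lobes cannot be read from these counts alone. Clu had 11079 CPM in DLP RFP+ and 3886 CPM in DLP RFP- cells in that setting, a ratio of 2.85 (2.71 to 3.01), beside 3.1 in the AP. Ly6a had 500.2 and 199 CPM, a ratio of 2.52 (2.00 to 3.21), beside 6.05 in the AP. Runx1 had 204 and 120.3 CPM, a ratio of 1.69 (1.25 to 2.34), beside 1.65. Nupr1 had a ratio of 7.25 (5.99 to 8.85) and Gstm1 of 0.111 (0.0965 to 0.127) in the DLP. The difference between lobes was not tested, as each lobe is 1 sum. In castrated VP, with 176 and 17 cells, 5 of the 12 highest and 10 of the 12 lowest genes had the AP direction, and 9 of the 17 RFP- cells (52.9%) were Sbp-high, so that no comparison without them was made.

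Intact AP cells were available in 3 runs, which the choice of genes did not use. They came from intact mice, and run 2 shares its lane with the castrated cells. Of the 24 named genes, 14 had the castrated direction in all 3 intact runs, 11 of the 12 highest and 3 of the 12 lowest. The 11 include Btc, Slc16a11 and Scara3. In run 3 RFP- cells held no UMI of these genes, which were counted there as higher in RFP+ cells without a ratio. No share of all genes stands beside these counts either. The exception among the highest was Slc40a1, with a log2 ratio of -0.16 in run 3 against 1.88 and 0.88 in runs 1 and 2. Without Sbp-high cells Runx1 had a mean log2 ratio of 2.82 ± 0.71 (SD, n = 3), beside 0.72 in the castrated AP. The RFP- level of Runx1 was 23.3, 18.5 and 14.7 CPM in the intact runs and 69.2 CPM after castration, while the RFP+ level was 95.7, 199 and 117 CPM and 114 CPM after castration. The castrated RFP- level lay above all 3 intact ones, also at 43.5 CPM without the 2 cells that held most Runx1 UMIs, and the castrated RFP+ level lay among the intact ones.

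The surface and chaperone genes followed the same contrast in intact mice with a wide spread. Ly6a had a mean log2 ratio of 2.70 ± 1.13, Anxa3 of 3.62 ± 1.11 and Clu of 5.05 ± 3.32 (SD, n = 3). Clu in RFP- cells was 689, 292 and 7.89 CPM in the intact runs and 1308 CPM in the castrated AP. Without the 2 RFP- cells that held most Clu UMIs the castrated level was 455 CPM. No such cells were left out of the intact levels, so this value cannot be ranked among them. Net1 had 2.76 ± 0.60, Camk2n1 1.69 ± 0.67 and Arl4c 1.51 ± 0.17. In run 3 RFP- cells held 0 UMIs of Btc, Slc16a11 and Scara3, so no ratio was formed there.

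In run 2 Tgm4 had lower levels in castrated than in intact AP cells, and so did Psca in RFP+ cells. Tgm4 had a mean log2 ratio of -2.37 ± 0.18 in the intact runs and Pbsn of -2.25 ± 0.19 (SD, n = 3), beside -1.21, which rests on few cells, and -0.93 in the castrated AP. The RFP- level of Tgm4 was 17371 CPM in intact run 2 and 2206 CPM in the castrated AP of the same run, and the RFP+ level 3111 and 955 CPM. Psca in RFP+ cells was 6419.8 CPM in intact run 2 and 184 CPM in the castrated AP. Basp1 and Lpl, of the castrated luminal markers, were at 99.6 and 14.5 CPM in intact RFP+ cells of run 2 and at 564 and 323 CPM in castrated ones. Both had ratios below 1 in all 3 intact runs, with mean log2 ratios of -1.70 ± 0.29 and -1.18 ± 0.40, and above 1 in the castrated AP, at 0.41 and 0.47.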

How the data were processed

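Per the submitters' processing notes, the authors ran Cell Ranger 3.1.0 on mm10 (GRCm38) and Seurat 3.1.5. The deposited matrix of run 2 holds raw UMI counts of 31053 genes, with MULTI-seq barcode counts and a table naming each barcode. It has 6034 cells, of which 4398 passed the limits. Of these, 1824 cells were given no population, 788 of them luminal. The barcode of intact DLP RFP+ cells had a median of 0 and was skipped.

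Raw counts were summed over the cells of a group and divided by the group's total UMIs. Ratios carry exact conditional (Clopper-Pearson) intervals and shares exact binomial ones. Counts came from single-molecule identifiers. No test was run. Genes were measured where at least 25% of the cells of either group held a UMI, without the 6 gate genes. Named genes were the 12 highest and 12 lowest ratios past 2-fold whose interval excludes 1, plus the RUNX family, and members of 35 gene lists (459 symbols, all matched). The members, lists and rules were chosen with earlier results of these data known. Leaving out the Sbp-high cells, and also the cells with at least 10 Tgm4 UMIs per 10000, was decided after seeing the data. So was leaving out the 2 cells with most UMIs of a gene.

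For shares at equal depth, the chance of keeping a UMI was computed for each cell at 3000 UMIs. This left out 1 RFP+ and 2 RFP- cells that were shallower. No doublet caller removed cells from the main values. Scrublet (top 6% of the library) was an alternative. Run 2 shared 6 and 5 cell barcodes with runs 1 and 3, of which 0 belonged to the 324 cells. The code was tested on simulated data. Python 3.11.15 was used with numpy 2.4.6, scipy 1.17.1, pandas 2.3.3, scanpy 1.11.5 and matplotlib 3.10.9. Gene positions and promoter windows were taken from RefSeq (GRCm38.p6). Castrated cells of run 1, whose labels give no lobe, and the urogenital sinus explants were not used here. Of the genes above, 1 of the 12 highest and some list members are not reported here by name.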

Additional observations from a re-analysis of the deposited data

Results flagged for a closer look

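The following genes had a castrated AP log2 ratio of RFP+ over RFP- opposite in sign to that of every intact AP run. They were Timp4 at -1.73, Gipc2 at -1.66, Filip1l at -1.56, Rnf186 at -1.29, Selenom at -1.22 and Mme at -1.20. The intact runs gave mean log2 ratios of 2.03 ± 0.42 for Timp4, 1.68 ± 0.23 for Gipc2, 1.49 ± 0.32 for Filip1l, 0.62 ± 0.56 for Rnf186, 1.17 ± 0.16 for Selenom and 0.79 ± 0.47 for Mme (SD, n = 3). The difference was not tested. Without the Sbp-high cells the castrated log2 ratios were -0.42, 0.10, 0.29, -0.05, -0.15 and -1.20, so that of Mme alone kept its size, and it was -0.44 with the Tgm4-high cells also left out.

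Of 788 luminal cells of run 2 that carry no population and enter no comparison, 55.6% (52.0 to 59.1, exact binomial) were Sbp-high. The share was 7.51% in castrated AP RFP+ cells.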

How the results depend on the processing

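In all cells 377 genes were higher and 22 lower. Of the alternatives, the stricter barcode rule gave 245 higher genes. The study's barcode thresholds gave 675 higher and 38 lower, thinning to 3000 UMIs gave 79 and 13, and a UMI in 10% of cells gave 845 and 127. No filter gave 3982 and 1508. A limit of 7500 UMIs, which left 26 RFP+ and 10 RFP- cells, gave 868 and 319, and turned Spink1 to a log2 ratio of 0.03 and Sbp to 0.14. Some genes then had 0 UMIs in RFP- cells and no value. Leaving out, for each gene, the 1 cell with most of its UMIs gave 607 higher genes. The lower genes numbered 34 with luminal keratins of at least 10 per 10000, 40 without the highest Scrublet scores, 38 without cells with mesonephric UMIs and 59 with every cell weighted the same. Totals without the 50 most abundant genes gave 169 and 82, and centring 141 and 91. Without Sbp-high cells (147 higher) Gipc2 turned to 0.10, Filip1l to 0.29 and Abo to 0.29. Without Tgm4-high cells too (47 RFP- cells, 200 higher and 35 lower), Filip1l was 0.19, Abo 0.60 and Selenom 0.05. The cause was not tested, beyond the fewer cells or genes these settings keep.

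Over 28 named and RUNX genes, 310 of 439 values stayed within the counting interval of the main value, 121 left it and 8 changed sign. The 10% limit and the setting without a filter change only which genes are counted. Taking barcode medians over passing cells kept the same numbers of cells, 253 and 71. Each of these settings gave 27 unchanged values that repeat the main value, so these values do not show stability. Runx1 kept a log2 ratio from 0.63 to 1.76. Clu ran from 1.47 (Tgm4-high cells also left out) to 4.86 (limit of 7500 UMIs). Arl4c ran from 1.45 (thinned to 3000 UMIs) to 5.48 (the study's barcode thresholds). Ly6a ran from 2.31 to 3.54, under the stricter barcode rule and the study's thresholds. These shifts lie beyond the counting intervals given above. Leaving out 1 intact AP run at a time left 14 to 16 of 24 named genes with the castrated direction. No paired analysis of the castrated groups was possible, as each is 1 sum of cells from 1 run. The intact RFP+ and RFP- groups were compared within each run, without a test. Depth limits the genes whose RFP- level rests on under 10 UMIs (Btc, Slc16a11, Scara3 and Ppp1r1b).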
